A study of Mus musculus with 32 samples.

Results

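The serum- and glucocorticoid-regulated kinases Sgk1, Sgk2 and Sgk3 were measured in interscapular brown adipose tissue (BAT) of mice that lack both isoforms of the transcription factor ChREBP or only its β isoform. Every probe named after 1 of these 3 genes and present in the deposited table was taken, which gave 8 of 37306 probes, namely 1 for Sgk1, 1 for Sgk2 and 6 for Sgk3, among 24523 gene names. The family was chosen by the difference of Sgk2 between total ChREBP KO and WT mice, which stood at rank 4 of the 24523 names when all were ordered from the most positive difference down. Values in that comparison are therefore given as a description without a test, and the comparison of ChREBPβ KO mice with their WT littermates, which played no part in the choice, is the one that was tested.

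The 32 arrays held 8 male C57BL6/J mice in each of 4 groups. The total ChREBP KO mice lacked Mlxipl, the gene that encodes ChREBP, and so both its α and β isoforms, whereas the ChREBPβ KO mice carried a CRISPR/Cas9 deletion of exon 1b, the first exon of the β isoform. Each KO was compared with WT littermates of its own line, and the deletions were present in all tissues of the animal, so that a difference in BAT need not have arisen in BAT. All mice went through 24 hours of fasting and then 18 hours of refeeding with water that contained 20% glucose, a protocol that activates ChREBP, and no fasted or untreated group was among the arrays. The age of the mice was not given in the sources used here.

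SGKs are serine/threonine kinases of the AGC family and close relatives of Akt. Lipids made by PI3K allow mTORC2 to phosphorylate the hydrophobic motif of the kinase, after which Pdpk1 phosphorylates the activation loop, and the active enzyme phosphorylates targets that include Ndrg1, Foxo transcription factors and the ubiquitin ligase Nedd4l, which controls the number of sodium channels at the cell surface. Sgk1 is an immediate-early gene induced by glucocorticoids, mineralocorticoids, serum and cell stress. Sgk2 is best known from liver, kidney and pancreas, and Sgk3 differs from the others by a lipid-binding PX domain that takes it to endosomes. The arrays measured RNA, not kinase activity or phosphorylation.

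The Sgk1 probe A_51_P118237 maps to chr10:21719390-21719449 and the Sgk2 probe A_55_P2042923 to chr2:162839803-162839862 in the mm9 build used by the array files, and all RefSeq accessions listed with them belong to these genes. The 6 Sgk3 probes lie along chr1 from 9820360 to 9892628. Only 3 of the 6, A_51_P306151, A_55_P1957228 and A_55_P2723084, are listed with the RefSeq transcripts of Sgk3, whereas A_55_P2721144, A_55_P2721149 and A_55_P2721154 carry Ensembl transcript names alone. The other probe for Sgk1, A_52_P352246 at chr10:21618550-21618609, was above background on 0 of 32 arrays and was not kept. Because the Sgk3 probes gave different answers, the sequences of the pair that meet at the same exon edge are shown, with the 24 bases they share in capitals. A_51_P306151 aligns between chr1:9881501 and chr1:9888829, a span of 7329 bases for a probe of 60 bases, so it joins sequence from both sides of an intron. A_55_P2721154 covers chr1:9888764-9888823 without a gap and reads into the sequence directly upstream of the shared stretch. None of the other probes on the array contained the shared stretch.
A_51_P306151: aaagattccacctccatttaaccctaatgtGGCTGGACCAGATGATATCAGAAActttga
A_55_P2721154: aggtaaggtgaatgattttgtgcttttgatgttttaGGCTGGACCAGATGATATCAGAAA

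Of the Sgk probes, 6 were well above background on all 32 arrays. A_55_P2721149 was above background on 7 of 8 arrays of the WT mice of the total ChREBP line, on 3 of 8 of the total ChREBP KO mice and on all arrays of the other groups. A_55_P2721154 passed the filter through ChREBPβ KO alone, where 6 of 8 arrays were above background, against 2 in the WT littermates of that line and 0 in both groups of the total ChREBP line. Levels are given as log2 of the quantile-normalized intensity, and because probes differ in how well they hybridize, no level is set against that of another probe.

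Between 64.4% and 71.1% of the spots on an array were well above background, and no pair of arrays held the same values. The brightest Mlxipl probe ranged from 16.00 to 16.34 in WT and from 13.50 to 13.92 in total ChREBP KO, and from 16.16 to 16.56 in WT and from 14.69 to 15.01 in ChREBPβ KO. A second probe, A_55_P2728555, was also lower in both KO groups, whereas A_55_P2045158 had means of 11.23 in WT and 11.37 in total ChREBP KO and of 11.45 in WT and 11.37 in ChREBPβ KO. All 8 brown adipocyte markers, Ucp1 and Cidea among them, were above background on every array, with a mean between 14.80 and 15.45. In total ChREBP KO 4 of them rose and 2 fell, where 44.1% of all genes passed by their brightest probe, 23.0% higher and 21.1% lower. Elovl3 was at -3.16, Ppargc1a at 1.18 and Adipoq at 0.65 on the log2 scale, whereas Ucp1 at -0.09 and Cidea at 0.04 did not pass. Markers of other tissues differed between arrays and groups. The mean of 6 skeletal muscle markers was 12.31 to 16.18 across both groups of the total ChREBP line and 5.55 to 11.81 in the ChREBPβ line, and that of 8 hepatocyte markers ranged from 6.85 to 12.09 in WT and from 7.28 to 10.24 in KO mice of the total ChREBP line, against 6.57 to 13.60 in WT and 6.47 to 13.33 in KO mice of the ChREBPβ line. All 8 hepatocyte markers were measured, 4 or 5 of them were above background on every array of a group, and none was at background throughout. In bulk tissue, fewer cells of a type and less RNA per cell cannot be told apart.

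Sgk2 was the family member with the large difference, 12.9-fold higher in total ChREBP KO than in WT littermates, against 1.08-fold in ChREBPβ KO. In the WT mice of the total ChREBP line the Sgk2 level had a lowest value of 7.34, a median of 7.56 and a highest value of 8.12. In total ChREBP KO the corresponding values were 10.78, 11.47 and 11.83. All 8 KO arrays lay above all 8 WT arrays, with a gap of 2.65 between the lowest KO and the highest WT array. The means ± SD were 11.38 ± 0.35 and 7.69 ± 0.29 (n = 8 each), a log2 difference of 3.69 ± 0.27 (SE). Within the 4 wash batches recorded in the labels the difference was between 3.35 and 4.25, so it was present in each.

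In the ChREBPβ line the Sgk2 level was more spread. It ran from 5.87 to 8.26 with a median of 6.58 in WT and from 6.52 to 8.21 with a median of 6.87 in ChREBPβ KO. The groups overlapped over most of their range. The SD was 0.88 in WT and 0.60 in KO. The 2 WT groups, which differ in line and not in a targeted gene, had means of 7.69 and 6.997, a log2 difference of -0.69 ± 0.27 (SE), which turned to 0.58 within wash batch 1 alone and whose groups overlapped.

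**Figure D1:**
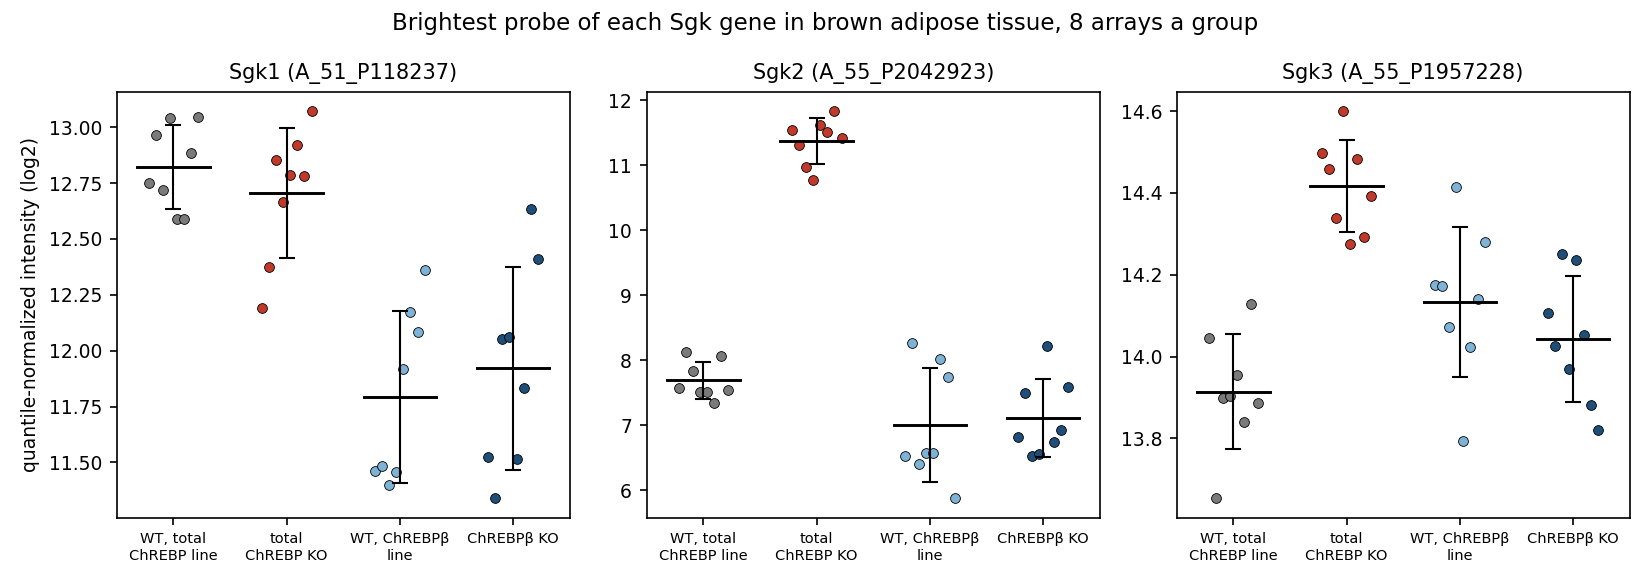
Quantile-normalized intensity (log2, vertical axis) of the brightest probe of Sgk1, Sgk2 and Sgk3 in the 4 groups. Each point is 1 array (n = 8 per group), the long horizontal line is the mean and the error bar is 1 SD. Sgk2 sits between 10.78 and 11.83 in total ChREBP KO and below 8.3 in all other arrays, the Sgk1 arrays of the 2 WT groups do not overlap, and the mean of Sgk3 is highest in total ChREBP KO.

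The spread of Sgk2 in the ChREBPβ line ran with hepatocyte transcripts. The 6 arrays of that line with the highest hepatocyte marker means, 12.39 to 13.60, held the 6 highest Sgk2 levels, 7.50 to 8.26, and they came from 3 WT and 3 ChREBPβ KO mice. The other 10 arrays of the line had marker means of 6.47 to 11.55 and Sgk2 levels of 5.87 to 6.92. The split into 6 and 10 arrays was made after the values had been seen. In the total ChREBP line the median of the hepatocyte marker mean was 8.33 in WT and 7.62 in KO. Among the WT arrays of that line, the highest Sgk2 level, 8.12, was on the array with the highest marker mean, 12.09. The next highest, 8.07, was on the array with the lowest marker mean, 6.85. Among the total ChREBP KO arrays, the 6 with the lowest marker means, 7.28 to 7.90, had Sgk2 levels of 10.78 to 11.83. Of the 8 markers, only Cyp2e1, a cytochrome P450 abundant in liver, passed the test in total ChREBP KO, with a log2 difference of 2.49 (limma adjusted p = 0.000224). Albumin (Alb) differed by -1.88 (limma adjusted p = 0.368). By their brightest probe, 44.1% of all genes passed in that comparison. The hepatocyte marker mean was also used as a covariate in the fit, a setting chosen after seeing the data. The Sgk2 difference in total ChREBP KO was then 3.76 ± 0.19 (SE) and that in ChREBPβ KO 0.097 ± 0.19 (SE). This mean includes Cyp2e1, which itself differed in total ChREBP KO. The part of hepatocyte signal in the Sgk2 difference was not tested. Of the markers of kidney tubule and pancreatic acinar cells that were measured, Slc34a1 differed by 1.00 (limma adjusted p = 2.12e-12), Aqp2 by 0.02 (adjusted p = 0.786) and Cela1 by -3.10 (adjusted p = 1.37e-15) in total ChREBP KO, and their part in the Sgk2 difference was not tested.

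**Figure D2:**
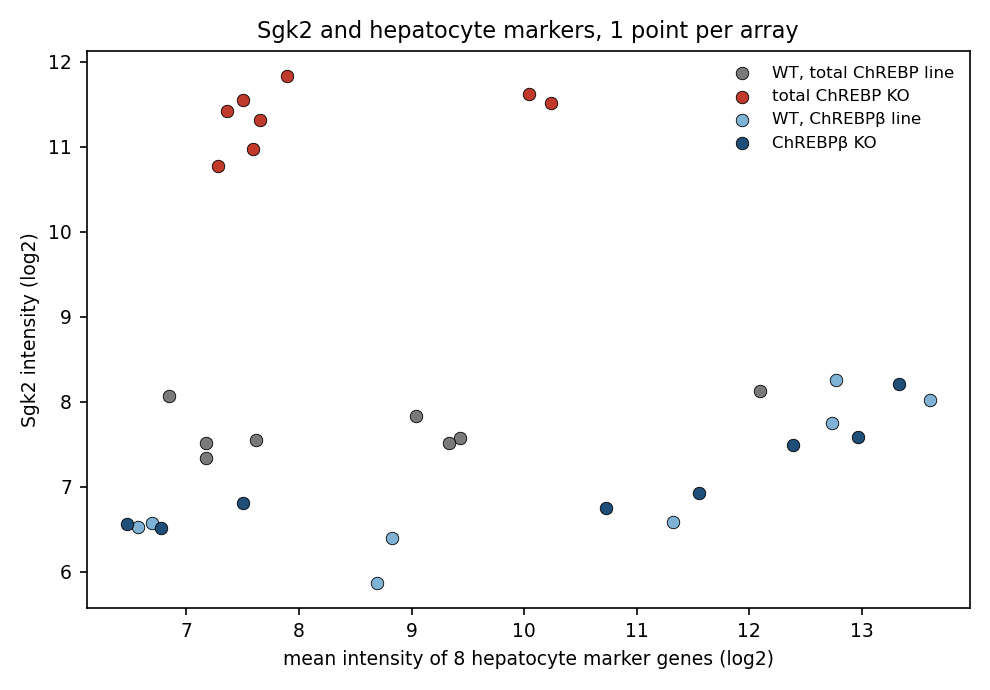
Sgk2 level (log2 intensity, vertical axis) against the mean level of 8 hepatocyte marker genes (log2 intensity, horizontal axis), with 1 point per array and colours for the 4 groups. The 16 arrays of the ChREBPβ line rise from left to right at the high end of the marker axis, whereas the 8 total ChREBP KO arrays lie between 10.78 and 11.83 at marker means of no more than 10.24.

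Of the genes beside Sgk2 on chromosome 2, none that was measured passed the test in total ChREBP KO. L3mbtl1, a chromatin-binding protein gene 2 places before Sgk2 in the RefSeq order, differed by -0.0004 ± 0.07 (SE) in total ChREBP KO, Ift52, a subunit of the ciliary transport complex next after it, by -0.06 ± 0.06 (SE), and Mybl2, a cell-cycle transcription factor beyond that, by 0.04 ± 0.06 (SE). Their limma adjusted p were 0.997, 0.434 and 0.627. The pseudogene Gm11453 between L3mbtl1 and Sgk2 had no probe under that name, and no neighbour of Sgk1 or Sgk3 within 2 places was measured.

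Sgk3 gave opposite answers at different places along the gene in total ChREBP KO. The probes near its 3′ end were higher in KO, whereas the probe that joins 2 exons was lower. At A_55_P1957228, the brightest Sgk3 probe, the level was 13.65 at the lowest, 13.90 at the median and 14.13 at the highest in WT and 14.27, 14.43 and 14.60 in total ChREBP KO. At A_55_P2723084, which starts 58 bases after the end of that probe, it was 11.11, 11.35 and 11.47 in WT and 11.63, 11.69 and 11.80 in KO. At both probes all 8 KO arrays lay above all 8 WT arrays, with gaps of 0.15 and 0.16. The log2 differences were 0.50 ± 0.07 (SE), or 1.42-fold, and 0.38 ± 0.07 (SE), or 1.30-fold.

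At the exon-joining probe A_51_P306151, whose sequence is printed above, the order was turned round. Its level ran from 7.13 to 7.28 with a median of 7.21 in WT and from 6.29 to 6.62 with a median of 6.43 in total ChREBP KO. All 8 KO arrays lay below all 8 WT arrays, with a gap of 0.51. The log2 difference was -0.78 ± 0.06 (SE), or 1.72-fold lower, and it was negative in all 4 wash batches, from -0.92 to -0.66. On Agilent's processed signal it was -0.94 and after normexp background correction -0.58, so the size but not the direction moved with the treatment of background.

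Of the 3 Sgk3 probes with Ensembl names alone, A_55_P2721149 differed by -0.32 ± 0.09 (SE) in total ChREBP KO, all 8 KO arrays lay below the WT mean and 2 lay below every WT array. On Agilent's processed signal this difference was -1.03. At A_55_P2721144 the difference was -0.03 ± 0.07 (SE). A_55_P2721154, which shares 24 bases with A_51_P306151, differed by -0.03 ± 0.07 (SE) between groups that were both at background on every array. The probes also differed in how they followed each other from array to array. After the group means were subtracted, the pair near the 3′ end had a Pearson r of 0.74 over 32 arrays, whereas A_51_P306151 had an r of 0.04 with A_55_P1957228 and of 0.11 with A_55_P2723084, and all these values share the arrays and their normalization.

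**Figure D3:**
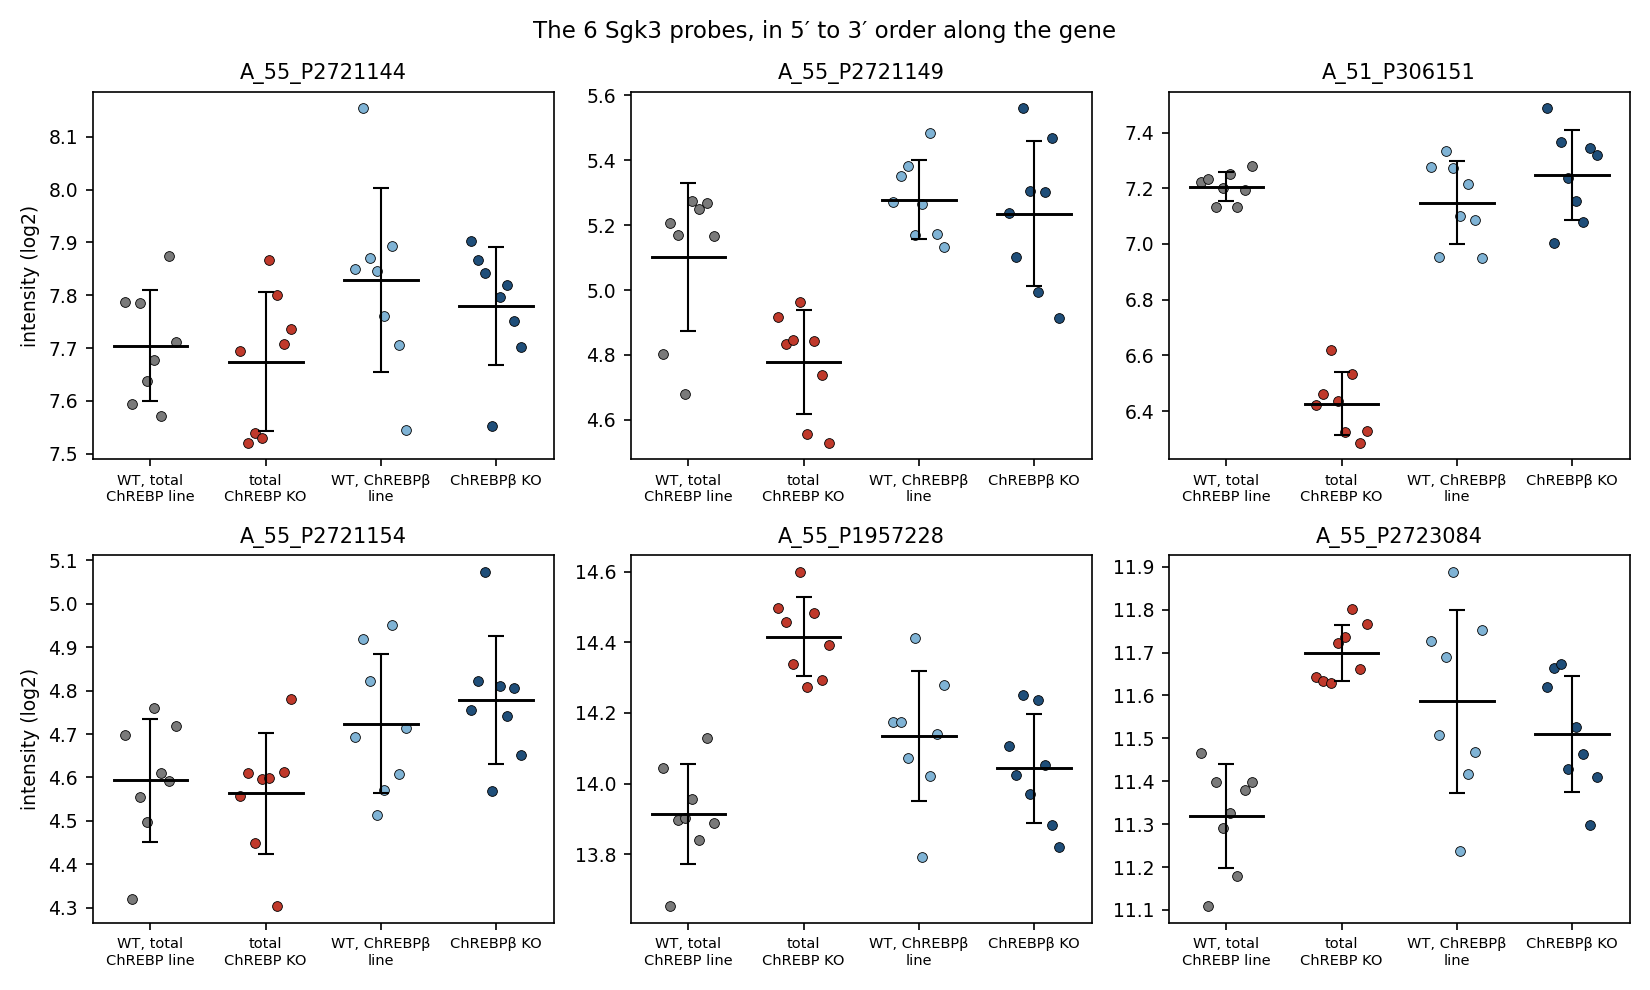
Level of the 6 Sgk3 probes (log2 intensity, vertical axes, each with its own range) in the 4 groups, ordered along the gene. Each point is 1 array (n = 8 per group), the long line is the mean and the error bar is 1 SD. In total ChREBP KO the exon-joining probe A_51_P306151 lies below WT at 6.29 to 6.62, and the last pair of probes lies above WT.

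Sgk1 overlapped between KO and WT in both lines, whereas its levels in the WT mice of the 2 lines did not overlap. Its level was 12.59 at the lowest, 12.82 at the median and 13.05 at the highest in WT and 12.19, 12.78 and 13.07 in total ChREBP KO. These groups overlapped, and the log2 difference was -0.12 ± 0.16 (SE). In the ChREBPβ line the level ran from 11.40 to 12.36 with a median of 11.70 in WT and from 11.34 to 12.63 with a median of 11.94 in KO. All 8 WT arrays of the ChREBPβ line lay below all 8 WT arrays of the total ChREBP line, with a gap of 0.23. The difference between the 2 WT groups was -1.03 ± 0.16 (SE), or 2.04-fold lower, and -1.40 to -0.67 within the wash batches. Within the ChREBPβ-line WT group, the 4 arrays of wash batches 1 and 2 lay between 11.40 and 11.48 and the 4 arrays of batches 3 and 4 between 11.92 and 12.36. This split was picked after the values had been seen, and no other group showed it. In ChREBPβ KO batches 1 and 2 ran from 11.34 to 12.06 and batches 3 and 4 from 11.52 to 12.63. In both groups of the total ChREBP line the same batches overlapped too. Skeletal muscle markers moved with the same line difference, all 6 passing the test with log2 differences from -7.08 to -5.82 in the ChREBPβ-line WT mice. By their brightest probe, 14.1% of all genes passed as lower in those mice. With the muscle marker mean as a covariate, also chosen after seeing the data, the Sgk1 difference was -1.11 ± 0.27 (SE). The marker mean ran from 12.31 to 16.18 in the WT mice of the total ChREBP line and from 5.55 to 11.81 in those of the ChREBPβ line. Since these ranges do not overlap, no fit with this covariate, here or below, can separate muscle signal from line.

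Over the family, 4 of 8 probes had groups without overlap in total ChREBP KO, where 15.6% of all probes did. Since that comparison chose the family, nothing is read from this count. Between the WT groups 1 of 8 Sgk probes, that of Sgk1, had groups without overlap, against 9.15% of all probes. With the muscle marker mean as a covariate the difference between the WT groups at Sgk3 A_55_P1957228 moved from 0.22 ± 0.07 to 0.08 ± 0.12 (SE), and that of Sgk2 from -0.69 ± 0.27 to -1.10 ± 0.44 (SE).

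In ChREBPβ KO, the comparison that was independent of the choice, no change of any Sgk probe was detected. With limma, 0 of 8 probes passed, against 2.55% of all probes, and 0 of 8 reached an unadjusted p under 0.05, the lowest being 0.129, against 13.6% of all probes. No Sgk probe had groups without overlap, against 0.365% of all probes. Of the 8, the Sgk3 probe A_55_P2721154 had passed the filter through ChREBPβ KO alone, so its place in these counts was not independent of this comparison. Sgk2 differed by 0.11 with a 95% interval from -0.45 to 0.66 (limma adjusted p = 0.936, exact two-sided permutation p = 0.772), and the WT mean was exceeded on 3 of 8 KO arrays. Sgk1 differed by 0.13 with an interval from -0.21 to 0.46 (limma adjusted p = 0.831, exact permutation p = 0.548), and the WT mean was exceeded on 5 of 8 KO arrays. Sgk3 at A_55_P1957228 differed by -0.09 with an interval from -0.24 to 0.06 (limma adjusted p = 0.688, exact permutation p = 0.300), and 6 of 8 KO arrays were below the WT mean. The 3 exact tests ran over 12870 splits of the arrays each. At the exon-joining Sgk3 probe the difference was 0.10 with an interval from -0.03 to 0.23 (limma adjusted p = 0.551). The interval of Sgk2 leaves room for a difference of up to 0.66 on the log2 scale.

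**Figure D4:**
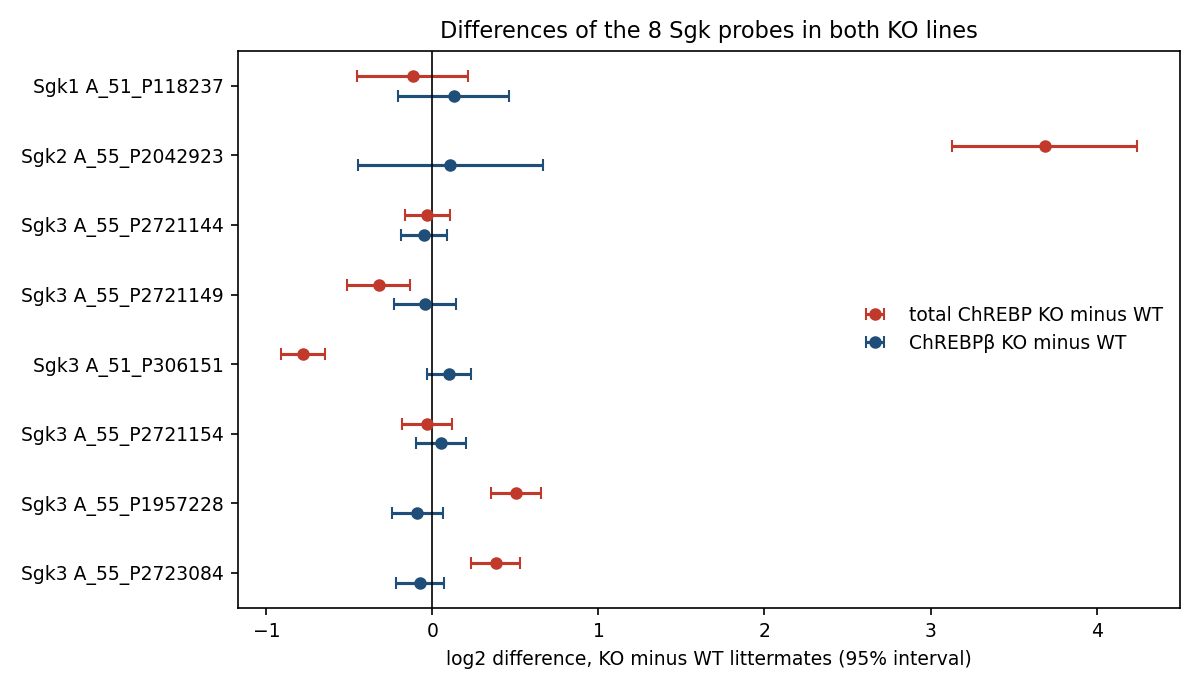
Log2 difference between KO and WT littermates (horizontal axis) of the 8 Sgk probes, for total ChREBP KO and ChREBPβ KO. Points are estimates from the fit over all arrays and bars are 95% intervals. All 8 intervals of ChREBPβ KO include 0, whereas in total ChREBP KO Sgk2 lies at 3.69 and the Sgk3 probes lie on both sides of 0.

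The genes whose pattern was most like that of each member were found by Pearson r with its brightest probe. Over all 32 arrays, r mostly reflects which group stands apart. For Sgk2 the leading names were Cox6a1 (r = 0.948), Gfra1 (r = 0.946), Hsd17b14 (r = 0.944) and Tmem82 (r = 0.939). Gfra1, a GDNF receptor, had a mean level of 4.91 in WT and 6.83 in total ChREBP KO, and Hsd17b14, a hydroxysteroid dehydrogenase, 7.14 and 9.14. The likeness of Cox6a1, a subunit of cytochrome c oxidase, rests on a step of rank: its probe held the value 18.73 on 24 arrays and 18.85 on the 8 arrays of total ChREBP KO. When the group means were subtracted, the leading names for Sgk2 became Aadat (r = 0.893), Gjb2 (r = 0.893), Cyp4a12a (r = 0.891) and Klkb1 (r = 0.878). All of these genes are expressed in liver, and in total ChREBP KO none passed the test, with log2 differences from -0.11 to 0.05. The r of the hepatocyte marker mean with Sgk2 on the same scale was 0.73.

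For Sgk1 the leading names over all arrays were Klf4 (r = 0.947), Errfi1 (r = 0.925), Apold1 (r = 0.917) and Tex30 (r = 0.906), and after the group means were subtracted they were Klf2 (r = 0.861), Klf4 (r = 0.855), Fbxo46 (r = 0.816) and Zzz3 (r = 0.806). Klf4 and Klf2 are transcription factors, Errfi1 an inhibitor of the EGF receptor and Apold1 an endothelial early-response protein, and all are induced quickly by stimuli. Klf4 had mean levels of 14.19 and 14.02 in WT and KO mice of the total ChREBP line and of 12.77 and 13.07 in the ChREBPβ line. For Sgk3 the leading names were Mrps36 (r = 0.909), Mrps16 (r = 0.894), Atpaf2 (r = 0.887) and Alkbh7 (r = 0.879) over all arrays and Mrpl2 (r = 0.812), Mrps36 (r = 0.768), Amacr (r = 0.765) and Smim10l2a (r = 0.751) after subtraction. Of these, Mrps16 and Mrpl2 encode proteins of the mitochondrial ribosome and Atpaf2 a factor for assembly of ATP synthase. Between the members themselves, r was -0.07 between Sgk1 and Sgk2, -0.36 between Sgk1 and Sgk3 and -0.14 between Sgk2 and Sgk3 after subtraction. All of these r share the arrays and their normalization.

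Genes around the kinases were read from 5 lists, with each gene represented by its brightest probe. By that probe, 44.1% of all genes passed the test in total ChREBP KO (23.0% higher and 21.1% lower), 2.70% in ChREBPβ KO (1.37% higher and 1.33% lower) and 38.9% between the WT groups (24.8% higher and 14.1% lower in the ChREBPβ line), and the medians of all genes were 0.01, -0.003 and 0.05. Of 19 genes that feed the kinases through PI3K, Pdpk1 and mTORC2, 3 rose and 5 fell in total ChREBP KO, with a list median of -0.01. Deptor, an inhibitor that binds mTOR, fell by 1.79 ± 0.08 (SE, limma adjusted p = 8.42e-18) and Mtor itself by 1.06 ± 0.08 (SE, adjusted p = 1.19e-12). The PI3K catalytic subunit Pik3cb fell by 0.78 ± 0.11 and the regulatory subunit Pik3r3 rose by 0.52 ± 0.09 (SE). Pdpk1, which phosphorylates the activation loop, differed by -0.01 (adjusted p = 0.931), and Rictor, the subunit that defines mTORC2, rose by 0.29 (adjusted p = 0.000716). In ChREBPβ KO, 0 of the 19 passed with limma and 3 had an unadjusted p under 0.05, which 14.1% of all genes had by their brightest probe.

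Of 17 substrates and partners of SGKs, 10 rose and 2 fell in total ChREBP KO, with a list median of 0.20. Foxo1, a transcription factor excluded from the nucleus when phosphorylated, rose by 0.68 ± 0.10 (SE, limma adjusted p = 2.87e-06), and Ndrg2, a relative of the classical substrate Ndrg1, rose by 0.59 ± 0.09 (SE, adjusted p = 5.09e-06). Ndrg1 fell by 0.35 (adjusted p = 0.00157). Nedd4l rose by 0.51 ± 0.07 (SE, adjusted p = 2.44e-07) and Gsk3b, a kinase inhibited by phosphorylation, fell by 0.50 ± 0.08 (SE, adjusted p = 6.29e-06). Of the 4 Nedd4l probes, 3 were higher and 1 lower, from -0.66 to 0.75. The same pair made up the 2 of 17 genes that passed in ChREBPβ KO, against 2.70% of all genes. There Gsk3b fell by 0.45 ± 0.08 (SE, adjusted p = 0.00126) and Nedd4l rose by 0.30 ± 0.07 (SE, adjusted p = 0.0104). Of the 17, 4 had an unadjusted p under 0.05, against 14.1% of all genes. In that comparison 2 of 4 Gsk3b probes and 1 of 4 Nedd4l probes passed. With the slide as a fixed block neither passed, and Nedd4l did not pass when only the 2 ChREBPβ-line groups were fitted (adjusted p = 0.0835).

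Of 19 channels and transporters under SGK control, 13 were measured, and 3 rose and 1 fell in total ChREBP KO, with a median of -0.01. Scnn1g, the γ subunit of the epithelial sodium channel, could be told from background on 6 of 8 arrays in KO but on 0 of 8 in WT. It was at least 2.08-fold higher in KO. The dim side was the lowest signal well above background on each array, or the probe's own where that was higher. The probe met the filter of 6 arrays in a group in the KO group, where it was high. Its place among the 3 that rose is therefore a description and not a test. Its measured means differed by 1.22 on the log2 scale, and by 0.59 to 2.93 under the alternatives. Scnn1a, the α subunit, rose by 0.20 ± 0.08 (SE, adjusted p = 0.0469), while Scnn1b differed by 0.07 (adjusted p = 0.510). Atp1b1, the β subunit of the sodium pump, rose by 0.37 ± 0.14 and the calcium sensor Stim1 fell by 0.40 ± 0.05 (SE). Of the 4 Stim1 probes 2 passed, with differences from -0.41 to -0.03 over the 4. The calls of Scnn1a and Atp1b1 were lost on Agilent's processed signal, and their adjusted p reached 0.0992 and 0.0910 when 1 array was left out. Scnn1a lost its call in most fits with 1 array left out. With the slide as a fixed block their adjusted p were 0.0575 and 0.371, and Atp1b1 was at 0.0787 with only the 2 groups fitted. In ChREBPβ KO 0 of the 13 passed with limma and 1 had an unadjusted p under 0.05, against 14.1% of all genes.

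Of 16 glucocorticoid and mineralocorticoid receptors, their enzymes and targets, 15 were measured. In total ChREBP KO 6 rose and 1 fell, with a median of 0.10. Hsd11b1, which regenerates active glucocorticoid within cells, fell by 2.26 ± 0.17 (SE, limma adjusted p = 1.74e-12), or 4.81-fold. The glucocorticoid receptor Nr3c1 rose by 0.76 (adjusted p = 6.19e-05), and among receptor targets Ddit4 rose by 1.04 ± 0.23, Zbtb16 by 0.87 ± 0.34 and Klf9 by 0.86 ± 0.08 (SE). The call of Zbtb16 was lost on Agilent's processed signal and in most fits with 1 array left out, its adjusted p reaching 0.0954 there. Without the filter on dim probes its adjusted p was 0.0503. It was 0.172 with the slide as a fixed block. In ChREBPβ KO 0 of the 15 passed with limma and 4 had an unadjusted p under 0.05, against 14.1% of all genes. Between the WT groups, where Sgk1 was lower in the ChREBPβ line, 0 of the 15 were higher and 10 lower, against 14.1% of all genes called lower, with a median of -0.60. Errfi1 differed by -2.38 ± 0.28, the cell-cycle inhibitor Cdkn1a by -1.62 ± 0.27, the clock gene Per1 by -1.25 ± 0.22 and Zbtb16 by -1.22 ± 0.34 (SE). With the muscle marker mean as a covariate 2 of the 15 passed, Errfi1 at -2.23 and Cdkn1a at -1.92. Per1 was then at -1.05 (limma adjusted p = 0.0526) and Zbtb16 at -0.96 (adjusted p = 0.271). Muscle signal and line cannot be told apart in that fit.

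Of 26 other AGC kinases, 2 rose and 7 fell in total ChREBP KO, with a median of -0.04. Akt1 differed by 0.03 (limma adjusted p = 0.714) and Akt2 by -0.08 (adjusted p = 0.312), and neither passed. The ribosomal S6 kinase Rps6ka1 fell by 1.48 ± 0.15 (SE, adjusted p = 1.66e-09), the protein kinases C Prkce and Prkca by 0.68 ± 0.11 and 0.65 ± 0.09, and the cGMP-dependent kinase Prkg2 by 0.64 ± 0.14. In ChREBPβ KO 0 of the 26 passed with limma and 7 had an unadjusted p under 0.05, which 14.1% of all genes had by their brightest probe. Macrophage markers fell in total ChREBP KO as well, 4 of 4, against 21.1% of all genes, with log2 differences from -0.80 to -0.53. Their part in the falls of kinase genes was not tested.

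Between the WT groups the other lists held calls in both directions. Of the PI3K and mTORC2 genes 7 were higher and 4 lower in the ChREBPβ line, of the substrates 5 and 3, of the channels and transporters 1 and 5, and of the AGC kinases 3 and 6. The AGC kinases Prkcq, Prkg2 and Prkg1 differed by -2.75, -1.22 and -1.17, beside the lower skeletal muscle markers of the same mice. With the muscle marker mean as a covariate the differences were -1.64, -1.29 and -0.85, and all 3 still passed. That fit cannot separate muscle signal from line either.

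**Figure D5:**
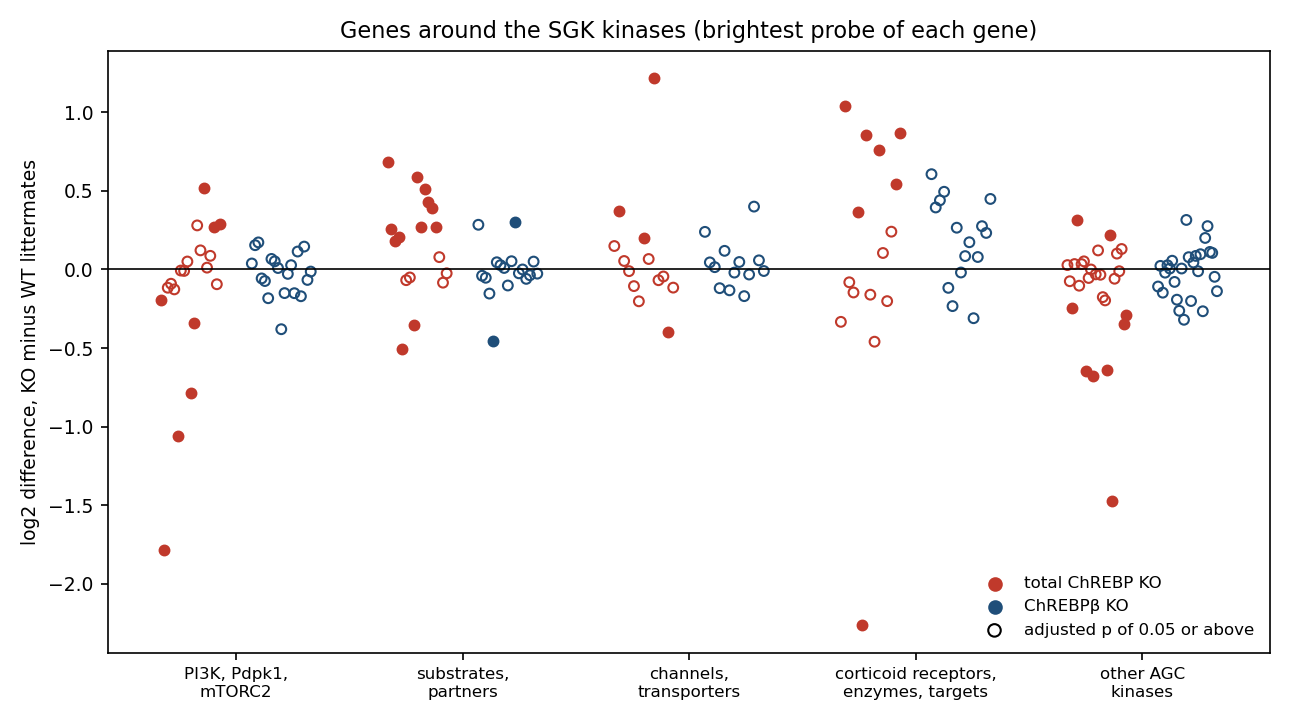
Log2 difference between KO and WT littermates (vertical axis) of the measured genes of the 5 lists, in total ChREBP KO and ChREBPβ KO. Each point is the brightest probe of 1 gene, filled where its adjusted p was under 0.05. In ChREBPβ KO only Gsk3b at -0.45 and Nedd4l at 0.30 are filled, whereas the filled points of total ChREBP KO reach from -2.26 to 1.22.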

How the data were processed

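RNA of BAT from 32 mice was hybridised to 1-colour Agilent SurePrint G3 Mouse arrays, 1 array per mouse. The authors scanned the arrays with Agilent Feature Extraction 10.10.1.1 and deposited the linear intensity of each spot together with a table of log2 values. They made that table by keeping spots above background, quantile normalization of the median signal and taking the median of repeated probes. Their methods name limma for reading in the raw data. The filter, normalization and median of repeated probes were repeated here from the deposited intensities. Of 59305 spots, 39985 passed the flags for being found, positive and well above background on no fewer than 26 arrays, or on 6 arrays of a group. Values of the resulting 37306 probes were on average 0.0113 away from those of the deposited log2 table. The alternatives, which include that table, are given in the closing part.

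limma 3.58.1 in R 4.3.3 was fitted with 4 group means, all 32 arrays and no covariate, p-values were adjusted by Benjamini-Hochberg over all probes, and calls were made where the adjusted p was under 0.05. Background counts and gene lists used the same fit. The script recovered known changes in simulated data. In Python 3.11.15, exact permutation tests compared means. Each mouse is a separate sample per the labels; slides numbered 15 and wash batches 4. The number of arrays limits the precision.

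The members and lists were chosen with earlier results of these data known. All Sgk probes were reported. From each list, up to 4 called genes of largest difference and any gene called in ChREBPβ KO were named, with other genes of the lists named for their role after their values were seen. The 4 genes most like each member, on both scales, and 2 neighbours on each side were also named. RefSeq names came from GRCm38.p6, whose coordinates were not used. The mouse genome in build mm9 and proteins were not used here. Replicate numbers did not pair the arrays.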

Additional observations from a re-analysis of the deposited data

Results flagged for a closer look

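For 4 of the 8 Sgk probes the difference between the effects of ChREBPβ KO and total ChREBP KO had a limma adjusted p under 0.05, which flagged them. The total ChREBP KO effect is part of that difference and chose the family, so the flag was largely fixed for Sgk2 by the choice. The share of all probes flagged in this way is not given here. Nothing is read from the count, and the values are given as a description. The difference between the effects on the log2 scale, ChREBPβ minus total, was -3.58 for Sgk2, 0.88 for Sgk3 at A_51_P306151, -0.59 for Sgk3 at A_55_P1957228 and -0.46 for Sgk3 at A_55_P2723084. In each of the 4, the value came from the total ChREBP line for the most part, the ChREBPβ KO effects being 0.11, 0.10, -0.09 and -0.08. The 2 KO lines differ in their WT mice and in muscle and hepatocyte signal too, and the part of these in the differences was not tested. No array stood apart from its group in any of the 32 combinations of probe and group examined for a single distant value.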

How the results depend on the processing

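No alternative put an Sgk probe past the threshold in ChREBPβ KO. The small Sgk2 difference there, 0.11, was -0.014 with the wash batch as a fixed block, -0.053 to 0.29 when 1 array was left out in turn, falling to -0.053 without ChREBPβ-line WT replicate 8 and -0.05 without ChREBPβ KO replicate 5. Sgk3 probes that were not above background on every array also turned, A_55_P2721154 to -0.036 with 75th percentile scaling and A_55_P2721149, from -0.090 to 0.0025 over arrays left out, to its highest value without ChREBPβ KO replicate 8. For the brightest Sgk3 probe the total ChREBP KO difference was 0.37 with 75th percentile scaling of the median signal.

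Values within single wash batches rested on 1 to 3 arrays per group. Sgk2 differed by 3.35 in batch 1 and 4.25 in batch 4 in total ChREBP KO, by -1.57 in batch 1 in ChREBPβ KO, and by 0.58 in batch 1 between WT groups. Sgk1 differed by 0.18 in batch 3 in total ChREBP KO, by -0.32 in batch 4 in ChREBPβ KO, and by -1.40, -1.34 and -0.67 in batches 1, 2 and 4 between WT groups. The brightest Sgk3 probe differed by 0.35 in batch 3 in total ChREBP KO and by 0.42 and 0.055 in batches 2 and 3 between WT groups. The cause was not tested.

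Genes with a called probe numbered 788 in ChREBPβ KO, against 125 with the slide as a fixed block, 400 with only the 2 groups of that line (fewer arrays) and 561 to 1291 with 1 array left out, the most without ChREBPβ-line WT replicate 5. Between the WT groups they numbered 11289, against 6977 among probes above background on all arrays (fewer probes) and 4370 with the muscle marker mean as a covariate. The replicate block gave 857 and 12263 genes in ChREBPβ and total ChREBP KO and an Sgk2 difference of 3.69, and same-numbered arrays correlated between -0.305 and 0.532, so the number was not taken to pair them. In the lists, substrates passing in ChREBPβ KO numbered 0 to 3, the other lists 0 to 2. In total ChREBP KO the PI3K, channel and AGC lists reached as few as 5, 2 and 4 against 8, 4 and 9, and between WT groups the muscle covariate left 3, 1, 2 and 2 in the PI3K, substrate, channel and corticoid lists against 11, 8, 6 and 10, and the strict filter 4 AGC kinases against 9. Of 1187 values of the named list genes under the alternatives, 1136 kept direction and call and 51 lost the call. A_55_P2721149 and A_55_P2721154 lie close to background, which limits their folds.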
